A study of Homo sapiens with 6 samples.

Results

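The genes described here are the small nucleolar RNA host genes that carry an SNHG symbol in the expression table of H69AR cells. They were chosen by name, from all symbols made of SNHG and a number, together with 10 further names (GAS5, ZFAS1, EPB41L4A-AS1, MALAT1, NEAT1, CYTOR, MIR17HG, DANCR, OIP5-AS1 and NORAD). The symbols SNHG32, SNHG20, SNHG4 and SNHG28 met the rule, which made 4 of the 27852 genes listed. None of the 10 further names was found in the table used, so they were not analysed here. H69AR is an established small-cell lung cancer (SCLC) line that was derived from H69 cells and resists drugs, and it is the 1 line behind all libraries. One group of 3 libraries is labelled siTREX1, from cells transfected with a TREX1 siRNA (#1 of the duplexes the study used), and the other group of 3 libraries is siCtrl, from cells transfected with a nonspecific control siRNA. RNA was collected on day 3 after transfection, and no other agent was named. A second TREX1 siRNA was not analysed here, so effects of the duplex itself and of TREX1 loss cannot be told apart. The study used the comparison to ask how H69AR cells respond when TREX1, an exonuclease that removes DNA from the cytoplasm, is depleted. It is not stated whether replicate libraries were made from separate cultures, so the p-values reflect variation among these libraries only and that variation may be technical.

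In H69AR cells, the paper compared TREX1 RNA by qPCR and TREX1 protein by immunoblotting between siCtrl and siTREX1. In the libraries used here, the listed TREX1 transcript, the 1 kept for this gene, went against the label in 1 library. Its estimated counts were 594, 298 and 301 in the libraries labelled siTREX1, against 506, 513 and 509 in siCtrl libraries. The first of the siTREX1 libraries was therefore above all siCtrl libraries before scaling, and in counts scaled to a common library size (CPM) it had 28.4, inside the siCtrl range of 22.7 to 31.5. The TREX1 log2 fold change was -0.33 ± 0.24 (SE, edgeR adjusted p = 0.349) with all 6 libraries and -0.62 (adjusted p = 0.0499) without siTREX1 replicate 1. For that reason the groups are called by their labels, and each host gene is given with and without that library. Library totals ran from 16329106 to 22482687 estimated counts. Mitochondrial transcripts held 4.46% ± 0.518 of the counts in libraries labelled siTREX1 and 6.12% ± 0.220 in siCtrl libraries (SD, n = 3 each). The part of this difference in the results below was not tested, except that the summed host level was also taken with mitochondrial genes left out of the total. Of 8 neuroendocrine markers of SCLC, CHGB, SYP, INSM1 and DLL3 were high enough to be tested, while others, among them NEUROD1, CHGA and NCAM1, were close to 0 in both groups. Of the other markers, PTPRC was the 1 of 4 leukocyte genes that was tested, with a summed list level of 1.88 to 2.90 CPM in libraries labelled siTREX1 and 2.07 to 2.57 CPM in siCtrl libraries, and the 3 endothelial genes were all too low to be tested. Of the neuroendocrine genes DLL3 was lower (log2 fold change -0.44, edgeR adjusted p = 0.00401), while CHGB, SYP and INSM1 were not called. The paper describes H69AR as a nonneuroendocrine derivative of H69. Of 5 mesenchymal genes, CAV1 was higher (0.48, adjusted p = 0.000796), ZEB1 was lower (-0.25, adjusted p = 0.0380) and VIM, AXL and FN1 were not called, with VIM abundant at 2523 CPM in libraries labelled siTREX1 and 2502 CPM in siCtrl libraries. Of 4 epithelial genes, EPCAM and CDH1 were too low to be tested. The keratins KRT8 and KRT18 were lower (-0.25 and -0.59, adjusted p = 0.00934 and 0.00110). The part of these marker differences in the results below was not tested.

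Small nucleolar RNAs (snoRNAs) guide chemical modification of other RNAs. Box C/D snoRNAs direct ribose methylation and box H/ACA snoRNAs direct pseudouridylation, mostly of ribosomal RNA, while small Cajal body RNAs (scaRNAs) do so for the spliceosomal RNAs. In human cells nearly all of them are cut out of introns, so a host transcript delivers the snoRNA from its introns and the spliced RNA from its exons. SNHG genes are the hosts whose spliced RNA has little or no coding role. The spliced RNA of many of them begins with a terminal oligopyrimidine (TOP) tract, as ribosomal protein mRNAs do, and is removed by nonsense-mediated decay (NMD) once it meets ribosomes. The values reported here measure the spliced RNA of the listed host transcript alone. No gene with a SNORA, SNORD or SCARNA symbol was in the table, so the snoRNAs were not measured, and the host level says nothing direct about their amount.

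The snoRNAs that each host carries are shown first, because they are what sets these genes apart from other long noncoding RNAs. SNHG32, which GENCODE 29 still names C6orf48, lies in the major histocompatibility complex region on chromosome 6 (listed transcript chr6:31834608-31839761 of GRCh38, plus strand, 4 exons). Its introns 1 and 2 hold the box C/D snoRNAs SNORD48 (chr6:31835263-31835326) and SNORD52 (chr6:31837076-31837142), both on the plus strand. In the pair of sequences below, the capitals mark the C box (TGATGA) near the 5′ end and the D box (CTGA) near the 3′ end, which the core proteins of the C/D particle bind.

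SNORD48: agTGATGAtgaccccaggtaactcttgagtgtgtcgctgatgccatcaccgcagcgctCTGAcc

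SNORD52: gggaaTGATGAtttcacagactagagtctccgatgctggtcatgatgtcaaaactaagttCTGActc

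SNHG20 lies on chromosome 17 (listed transcript chr17:77088749-77099196, plus strand, 4 exons) and holds SCARNA16 in intron 2 (chr17:77089307-77089493). SNHG4 lies on chromosome 5 (listed transcript chr5:139274118-139283244, plus strand, 6 exons), with SNORA74D in intron 2 (chr5:139276180-139276320) and SNORA74A, also called U19, in intron 3 (chr5:139278781-139278978). SCARNA16 and SNORA74A are box H/ACA RNAs. In the SCARNA16 sequence the capitals mark the ACA box close to the 3′ end.

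SCARNA16: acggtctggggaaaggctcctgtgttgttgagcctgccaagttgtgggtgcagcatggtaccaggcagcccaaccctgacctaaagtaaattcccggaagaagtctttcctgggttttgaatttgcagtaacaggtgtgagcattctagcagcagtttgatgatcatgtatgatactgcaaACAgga

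**Figure D1:**
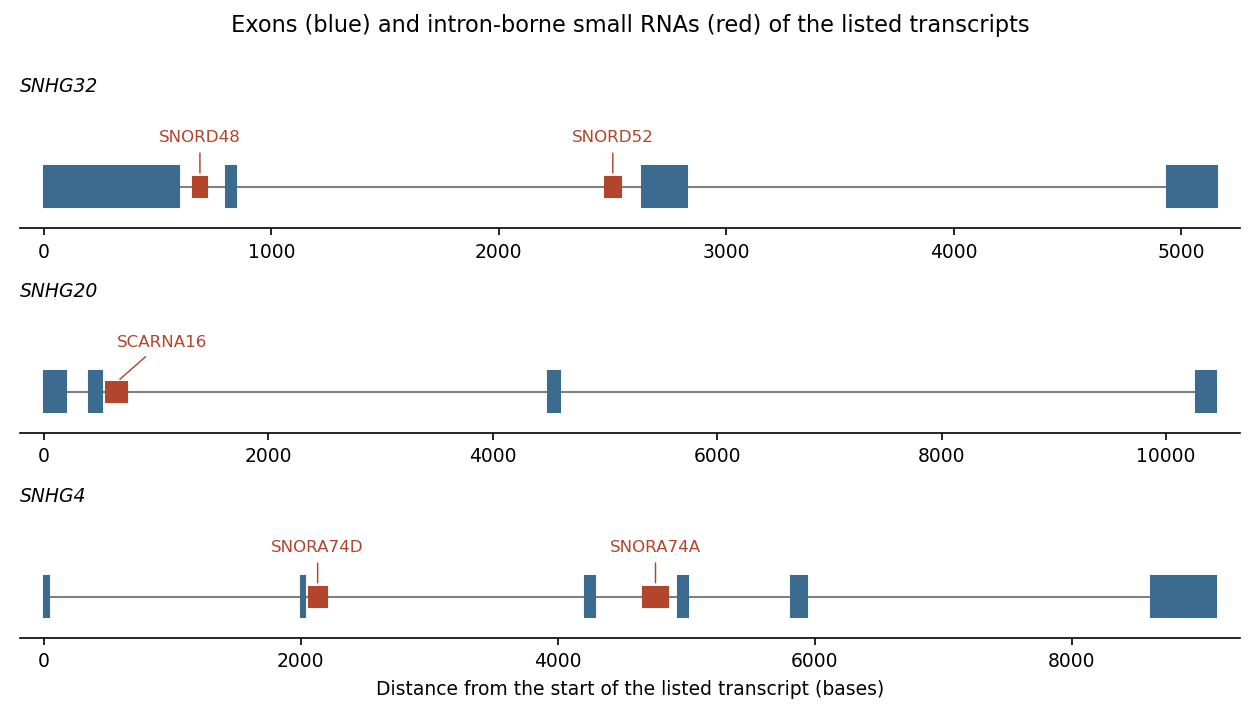
Exons (blue boxes) and small RNAs (red boxes) of the listed transcripts of SNHG32, SNHG20 and SNHG4 from GENCODE 29, drawn to scale within each panel against the distance in bases from the start of the transcript. Every small RNA sits between exons, and SCARNA16 begins 558 bases and SNORA74A 4663 bases from the start of its host.

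The hosts also differ at their transcription starts. The windows below span 60 bases, 30 on each side of the RefSeq start (GRCh38.p14), and the capitals mark the longest run of C and T in each window. They are chr6:31834886-31834945 for SNHG32, chr5:139274071-139274130 for SNHG4 and chr17:77088613-77088672 for SNHG20, all on the plus strand.

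SNHG32: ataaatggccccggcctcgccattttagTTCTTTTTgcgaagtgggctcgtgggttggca

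SNHG4: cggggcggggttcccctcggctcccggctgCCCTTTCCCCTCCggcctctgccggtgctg

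SNHG20: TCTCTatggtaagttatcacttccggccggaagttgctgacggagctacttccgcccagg

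A C at the first transcribed base, followed by C or T only until the run held at least 5 bases, was taken as a TOP-like start and was read on the transcribed strand alone. SNHG4 had a run of 13 bases from its first base and SNHG32 one of 6. SNHG20 began with A and SNHG28 with G, so neither had such a start. Of 35116 promoter windows in RefSeq, 4.07% held a TOP-like start. A run of C and T as long as the longest one in the SNHG4 window was found in 4.40% of them, against 23.8% for SNHG32 and 70.5% for SNHG20. These are matches of letters and not measured start sites. The listed SNHG32 transcript begins upstream of the RefSeq start, which falls inside its first exon. The listed SNHG4 and SNHG20 transcripts begin downstream of theirs, at base 139274118 against 139274101 for SNHG4, so the SNHG4 transcript that was quantified does not contain the run of 13 bases shown above.

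The deposited values are estimated counts for 1 transcript per gene that do not depend on transcript length, so levels can be set side by side between genes in CPM. The listed transcripts of SNHG32, SNHG20 and SNHG4 are among 11, 18 and 9 annotated for these genes. Of their words of 31 bases, 81.7%, 100% and 100% also occur in other transcripts of the same gene. A difference in a listed transcript therefore need not hold for the whole host gene. How reads were divided among transcripts of a host was not tested. SNHG32 was the most abundant host and exceeded 85.3% of the 13221 genes tested, SNHG20 exceeded 69.2% and SNHG4 exceeded 50.7%. This order held in each of the 6 libraries, and the ranges of neighbours in it did not overlap. SNHG28 was close to 0, with no counts in 5 libraries and 6 estimated counts in siCtrl replicate 3, and it did not pass the filter on low values. Of its listed transcript, 97.2% of the words of 31 bases also occur in other gene entries, nearly all of them in a second GENCODE entry of the same symbol, and 806 exon bases are shared with SLAMF8 on the opposite strand, so it is not described further.

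Of the 3 host genes tested, SNHG4 was lower, SNHG20 was higher and SNHG32 did not pass the threshold in libraries labelled siTREX1 (edgeR quasi-likelihood test, adjusted p under 0.05 over all genes). These counts of 1 in each direction stand against 17.8% of all tested genes called higher and 15.5% called lower, or 33.3% in either direction, so a call by itself was common over all genes. It was less common among the 91 tested genes whose listed transcript is a long noncoding RNA, as it is for the 3 hosts. Of those, 9.89% were higher and 7.69% lower, or 17.6% in either direction (median log2 fold change -0.18). Over the 3 hosts the median log2 fold change was 0.10, beside -0.02 over all tested genes. Summed, the hosts reached 142, 145 and 135 CPM of the unscaled library total in libraries labelled siTREX1, against 128, 136 and 131 in siCtrl libraries. The mean was 141 ± 5.22 in libraries labelled siTREX1 and 132 ± 3.90 in siCtrl libraries (SD, n = 3 each), and the lowest siTREX1 library fell inside the siCtrl range. The difference of these means was 9.01 CPM. It was 7.01 to 7.32 CPM with counts scaled to a common library size or with mitochondrial genes left out of the total. In a bulk sample a smaller number of cells that express a gene and less RNA per cell cannot be told apart.

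**Figure D2:**
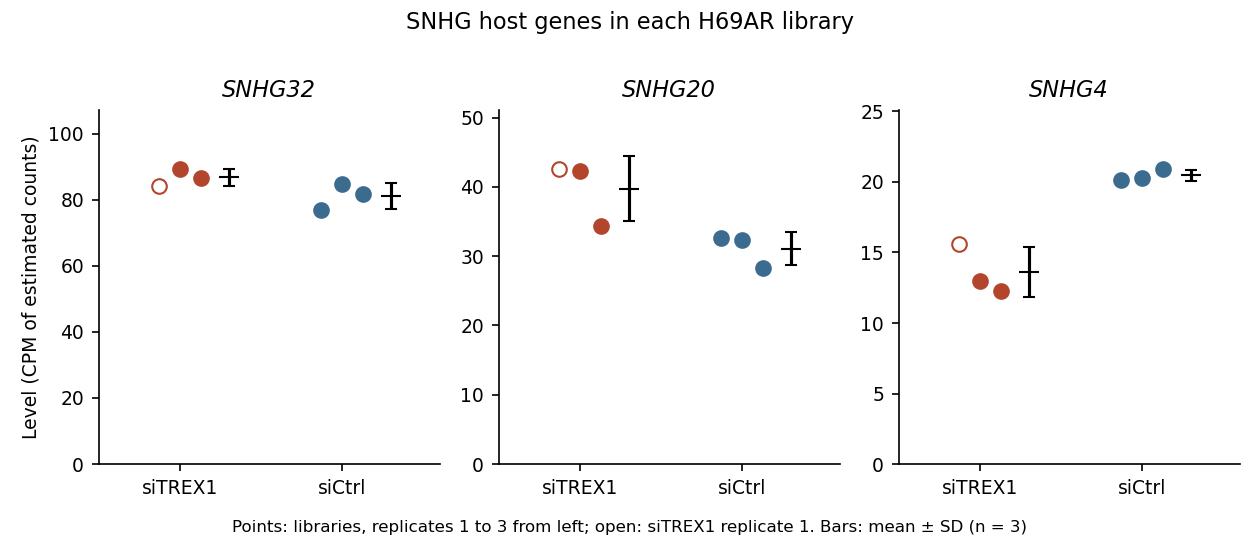
Levels of SNHG32, SNHG20 and SNHG4 in CPM of estimated counts (vertical axes from 0, each gene on its own scale) in libraries labelled siTREX1 (red) and siCtrl (blue), with the mean ± SD of 3 libraries beside the points and siTREX1 replicate 1 drawn open. All SNHG4 values of siTREX1 libraries (12.3 to 15.6) lie below those of siCtrl libraries (20.2 to 20.9), SNHG20 is the reverse, and the SNHG32 groups overlap.

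SNHG4, the host of SNORA74A and SNORA74D, differed most among the 3 hosts on the log2 scale. Its level was 15.6, 13.0 and 12.3 CPM in libraries labelled siTREX1, against 20.2, 20.3 and 20.9 CPM in siCtrl libraries. The groups did not overlap, which was so for 25.2% of all tested genes in the lower direction, and the siCtrl libraries lay close together while the siTREX1 libraries spread more widely. The mean fell to 13.6 ± 1.77 CPM in libraries labelled siTREX1, against 20.5 ± 0.415 CPM in siCtrl libraries (SD, n = 3 each). The log2 fold change was -0.59 ± 0.10 (SE, 95% interval -0.83 to -0.34, edgeR adjusted p = 0.00687), a level 0.666 times that of siCtrl libraries. The siTREX1 library nearest to the siCtrl values was replicate 1, which is also the library whose TREX1 went against the label. For SNHG20 the same library, at 42.6 CPM, was nearly level with siTREX1 replicate 2, at 42.3 CPM. A link to the TREX1 level was not tested. Without siTREX1 replicate 1, the SNHG4 log2 fold change was -0.70 (edgeR adjusted p = 0.00440).

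Of the 91 tested genes whose listed transcript is annotated as a long noncoding RNA, 19 had a lower log2 fold change than SNHG4 and 71 a higher one. Among the 242 tested genes that hold an annotated snoRNA or scaRNA, 14 were lower than SNHG4. Among the 42 of those hosts with a TOP-like start, EIF4A2 was the 1 gene below it, at -1.18. EIF4A2 encodes an RNA helicase of translation initiation and hosts several snoRNAs itself.

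The SNHG4 transcript overlaps a neighbour. Of its exon bases, 359 (41.5%) are also exonic in MATR3, counted over all annotated MATR3 transcripts. MATR3 is a nuclear matrix protein gene on the same strand whose annotated start lies 350 bases away. The estimates can therefore depend on how reads were divided between these genes. Whether the listed MATR3 transcript holds the shared bases was not tested. Part of the rest of SNHG4 is repetitive, and in all 48.3% of its words of 31 bases occur in other genes. MATR3 was far more abundant, with 254, 256 and 267 CPM in libraries labelled siTREX1, against 281, 273 and 256 CPM in siCtrl libraries. Its groups overlapped and its log2 fold change was -0.06 ± 0.04 (SE, edgeR adjusted p = 0.344), while removing a trend with GC content gave -0.15 (adjusted p = 0.0199). Within each library, SNHG4 had 6.13, 5.04 and 4.58 counts per 100 MATR3 counts in libraries labelled siTREX1, against 7.18, 7.43 and 8.19 in siCtrl libraries. The ratio was lower in all 3 siTREX1 libraries (difference of log2 means -0.54, exact two-sided permutation test p = 0.1, adjusted p = 0.1 over 2 such ratios), and 0.1 is the smallest p that 3 libraries against 3 allow. SIL1, a co-chaperone gene on the opposite strand that overlaps SNHG4 without sharing exon bases, had 28.5, 30.3 and 27.2 CPM in libraries labelled siTREX1, against 31.3, 35.0 and 33.1 CPM in siCtrl libraries (log2 fold change -0.21 ± 0.07 SE, edgeR adjusted p = 0.0543).

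SNHG20, the host of SCARNA16, moved the other way. Its level was 42.6, 42.3 and 34.3 CPM in libraries labelled siTREX1, against 32.6, 32.4 and 28.3 CPM in siCtrl libraries. The groups did not overlap, as for 25.3% of all tested genes in the higher direction, but siTREX1 replicate 3 was only slightly above the highest siCtrl library. The mean was 39.7 ± 4.71 CPM in libraries labelled siTREX1 and 31.1 ± 2.40 CPM in siCtrl libraries (SD, n = 3 each). The log2 fold change was 0.36 ± 0.10 (SE, 95% interval 0.10 to 0.61, edgeR adjusted p = 0.0426). This call was close to the threshold and depended on single libraries. Without siTREX1 replicate 1 the log2 fold change was 0.31 (edgeR adjusted p = 0.121), and leaving out each library in turn gave 0.29 to 0.45 with adjusted p from 0.0135 to 0.121. The call was lost in 5 of these 6 fits, all except the one without siTREX1 replicate 3.

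Of the 3 hosts tested, SNHG20 shares the largest part of its exons with another gene. Of its exon bases, 424 (70.3%) are exonic in SEC14L1 on the same strand, and 394 of its 573 words of 31 bases occur there. Both counts are over all annotated SEC14L1 transcripts, not the listed one alone. SEC14L1, a lipid transfer protein of the SEC14 family, had 64.2, 60.7 and 59.5 CPM in libraries labelled siTREX1, against 78.7, 64.4 and 64.3 CPM in siCtrl libraries. Those groups did not overlap, with siCtrl replicate 1 well above the rest, and the log2 fold change of -0.17 ± 0.09 did not pass the threshold (SE, edgeR adjusted p = 0.194). SNHG20 had 66.4, 69.7 and 57.6 counts per 100 SEC14L1 counts in libraries labelled siTREX1, against 41.4, 50.4 and 44.0 in siCtrl libraries. The ratio was higher in all 3 siTREX1 libraries (difference of log2 means 0.51, exact two-sided permutation test p = 0.1, the smallest possible, adjusted p = 0.1). How the reads of the shared exons were divided between SNHG20 and SEC14L1 was not tested.

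**Figure D3:**
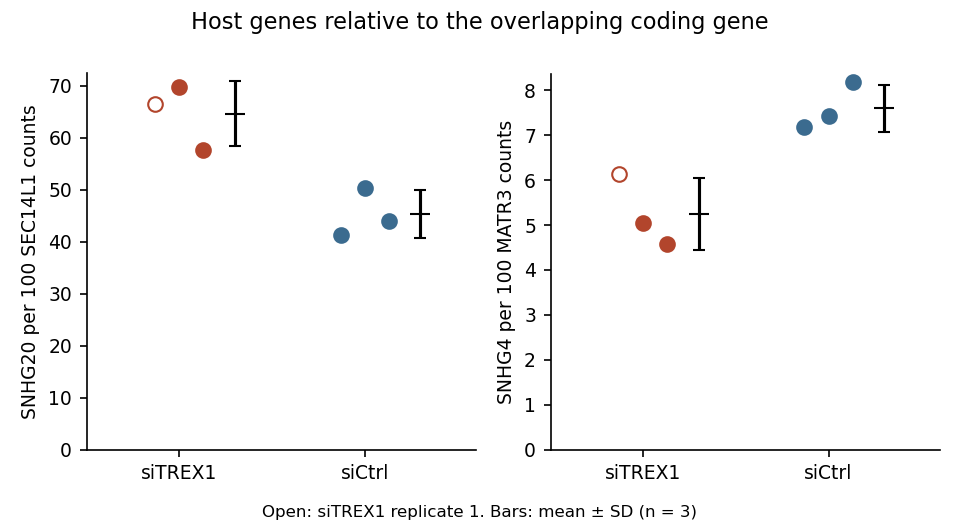
Estimated counts of SNHG20 per 100 counts of SEC14L1 and of SNHG4 per 100 counts of MATR3 within each library (vertical axes from 0), in libraries labelled siTREX1 (red, replicate 1 open) and siCtrl (blue), with the mean ± SD of 3 libraries. The SNHG20 ratio is 57.6 to 69.7 in siTREX1 libraries and 41.4 to 50.4 in siCtrl libraries, while the SNHG4 ratio is 4.58 to 6.13 in siTREX1 libraries and 7.18 to 8.19 in siCtrl libraries.

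SNHG32, the host of SNORD48 and SNORD52, had 84.3, 89.4 and 86.6 CPM in libraries labelled siTREX1, against 76.9, 84.6 and 81.8 CPM in siCtrl libraries. The groups overlapped at 1 point, where siTREX1 replicate 1 was just below siCtrl replicate 2. The mean was 86.8 ± 2.55 CPM in libraries labelled siTREX1 and 81.1 ± 3.91 CPM in siCtrl libraries (SD, n = 3 each). The log2 fold change was 0.10 ± 0.05 (SE, 95% interval -0.02 to 0.21, edgeR adjusted p = 0.162), and 0.12 (adjusted p = 0.164) without siTREX1 replicate 1. The interval leaves room for an increase of up to 0.21 on the log2 scale but not for a fall like that of SNHG4. SNHG32 shares 37.9% of its words of 31 bases with another GENCODE entry, AL671762.1. The 95% intervals of SNHG32 and SNHG4 did not overlap. Both genes have a TOP-like start in RefSeq, but neither listed transcript begins at that start. The part of the start in these values was not tested.

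**Figure D4:**
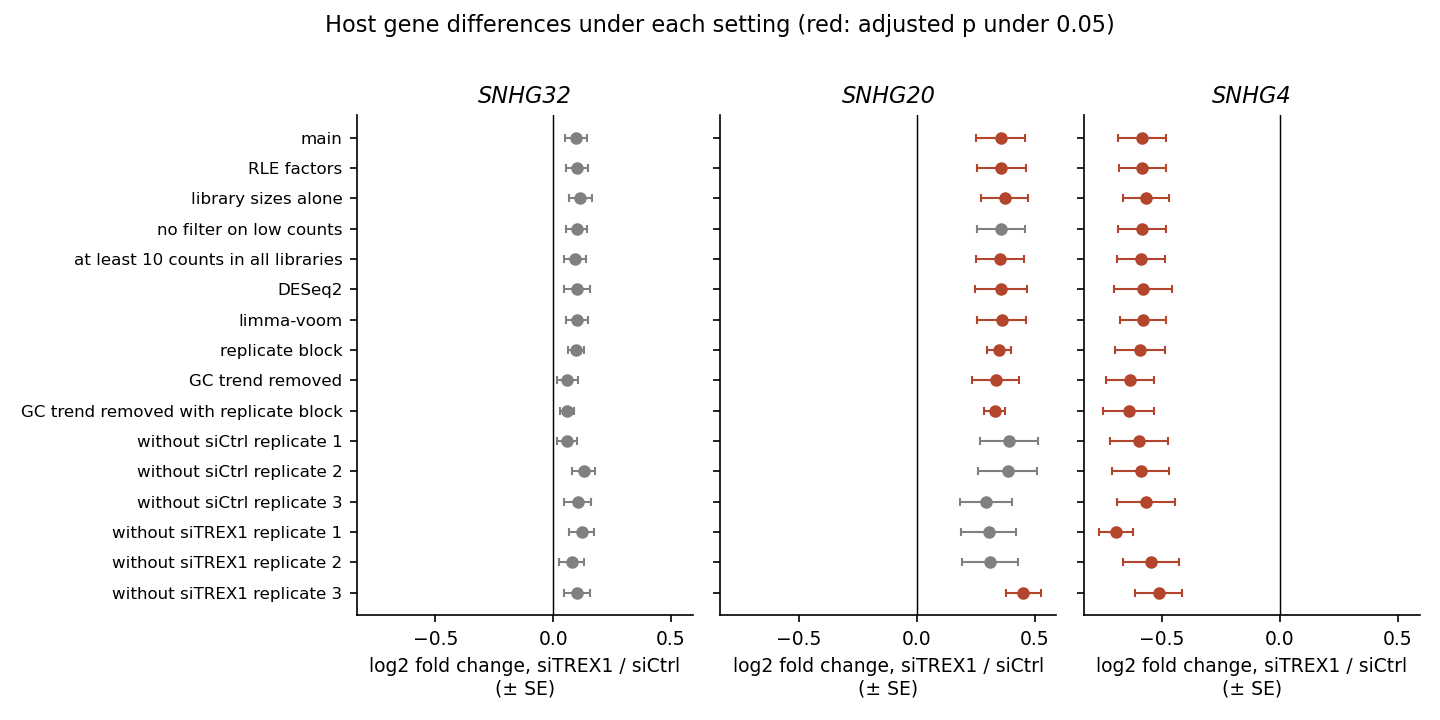
Log2 fold change of SNHG32, SNHG20 and SNHG4 in libraries labelled siTREX1 over siCtrl (horizontal axes, points with ± SE) under the reported fit (top) and 15 other settings, red where the adjusted p was under 0.05. SNHG4 stays red in every row (-0.70 to -0.52 with single libraries left out), SNHG20 stays above 0 but loses the call in 6 rows, and SNHG32 is never called.

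Other genes that hold snoRNAs in their introns were compared with the SNHG genes, because host and snoRNA transcription are coupled in the same way. The list of 31 protein-coding hosts and the lists in the paragraphs below were chosen with earlier results of these data known. Of the 31 protein-coding hosts, 16 were lower, 6 were higher and 9 did not pass, with a median log2 fold change of -0.08. Of all tested genes, 15.5% were lower and 17.8% higher. Without siTREX1 replicate 1, 12 were lower and 6 higher. These hosts are abundant, and even NOP56, the lowest of them in level, exceeded 89.96% of the genes tested. Many of the calls were small, such as RPL32 at -0.06 (edgeR adjusted p = 0.0495) and RPS12 at -0.08 (adjusted p = 0.0192). The shares over all genes include genes of far lower level, and the hosts were not compared with genes of similar level. Apart from EIF4A2, the genes that were lower encode ribosomal proteins, whose mRNAs are classical TOP mRNAs and whose estimates are less certain because of their many pseudogenes. RPL3, a large-subunit protein, averaged 1390 ± 11.4 CPM in libraries labelled siTREX1 and 1605 ± 33.7 CPM in siCtrl libraries (log2 fold change -0.21, edgeR adjusted p = 0.00111). EIF4A2 averaged 223 ± 4.51 CPM in libraries labelled siTREX1 and 506 ± 18.2 CPM in siCtrl libraries (adjusted p = 2.6e-05), while its paralogue EIF4A1 was higher at 0.23 (adjusted p = 0.000648). Over all 242 tested hosts annotated in GENCODE 29, 53 were higher and 43 lower, with a median of -0.04. The 31 tested hosts that encode ribosomal proteins had 1 higher and 17 lower, and the other 211 had 52 higher and 26 lower. Split by their start, the 42 hosts with a TOP-like start had 6 higher and 16 lower (median -0.07), and the 150 hosts with another start in RefSeq had 37 higher and 22 lower (median -0.03). SNHG4 and SNHG32 belong to the TOP-like set and SNHG20 to the other, and over all genes with a TOP-like start 14.5% were higher and 22.3% lower, against 19.5% higher and 15.1% lower for genes with another start. Of the 28 hosts with a TOP-like start that do not encode ribosomal proteins, as SNHG4 does not, 5 were higher and 8 lower (median -0.06).

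The proteins that dress the intron-borne RNAs were mostly higher or not called. Of the 8 core proteins of C/D and H/ACA particles, 4 were higher, none was lower and 4 did not pass (median log2 fold change 0.17), beside 17.8% higher and 15.5% lower over all genes tested. NOP56 and NOP58, which hold the C/D particle together and would package SNORD48 and SNORD52, averaged 148 and 176 CPM in libraries labelled siTREX1, against 89.1 and 122 CPM in siCtrl libraries (log2 fold changes 0.73 and 0.53, edgeR adjusted p = 0.000252 and 0.000313). DKC1, the pseudouridine synthase of H/ACA particles such as SNORA74A and SCARNA16, was higher by 0.23 (adjusted p = 0.00117) and NOP10, its small partner, by 0.17 (adjusted p = 0.00538). FBL, the methyltransferase of the C/D particle, had 378 CPM in libraries labelled siTREX1 and 380 CPM in siCtrl libraries (adjusted p = 0.898). NOP56 and DKC1 are snoRNA hosts themselves. Of 10 assembly factors, 6 were higher, 1 lower and 3 did not pass (median 0.20). The 6 became 2 without siTREX1 replicate 1, siTREX1 replicate 3 or siCtrl replicate 3, and 3 without siCtrl replicate 1 or 2. ZNHIT6, a C/D assembly factor, was higher by 0.34 (adjusted p = 0.00198), as was NAF1, an H/ACA assembly factor (adjusted p = 0.00866). SHQ1, a chaperone of DKC1 (0.25), and PHAX, an export and transport adaptor of small RNAs (0.53, for a listed transcript with a retained intron), were higher with all libraries and lost the call without siTREX1 replicate 1 (edgeR adjusted p = 0.0576 and 0.0736).

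Genes that act on the spliced host RNA moved as follows. Of 19 NMD factors, which remove spliced SNHG RNA after translation, 12 were higher, 2 lower and 5 did not pass (median 0.28), where 17.8% of all tested genes were higher and 15.5% lower. Without siTREX1 replicate 1, 10 were higher and 2 lower, and the lower ones were not the same pair: NBAS lost its call and EIF4A3, listed at 160, 0 and 0 estimated counts in libraries labelled siTREX1, against 178, 176 and 100 in siCtrl libraries, gained one. SMG8, SMG5 and SMG9 were higher by 0.61, 0.59 and 0.49 and MAGOH, a core protein of the exon junction complex, by 0.41 (edgeR adjusted p = 0.000270, 0.000134, 0.000882 and 0.00121). UPF1, the central NMD helicase, averaged 75.8 CPM in libraries labelled siTREX1 and 57.7 CPM in siCtrl libraries (log2 fold change 0.39, adjusted p = 0.00390). Several NMD factors are themselves NMD targets. Of 6 tested mRNAs known as decay targets, GADD45B (0.76), ATF4 (0.43), ATF3 (0.40) and BAG1 (0.33) were higher, and none was lower. Beside them, SNHG20 was higher and SNHG4 lower. Of 12 genes of the mTOR and LARP1 control of TOP mRNAs, 2 were higher, 1 was lower and 9 did not pass (median 0.11), a share of 25.0% called against 33.3% of all tested genes, and with each library left out in turn 0 or 1 was higher. LARP1, which binds the TOP tract, had a log2 fold change of 0.08 (adjusted p = 0.0659). TSC1 (0.47) and CNBP (0.14) were higher, and EIF4EBP1 (-0.13) was lower in this fit but had the opposite sign once a GC trend was removed. The TSC1 and EIF4EBP1 calls were lost without siTREX1 replicate 1 (edgeR adjusted p = 0.0683 and 0.137).

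Protein partners of the long noncoding RNAs that the rule named besides the hosts were listed too, although those RNAs were not analysed here. Of 14 paraspeckle proteins, which assemble on NEAT1, 9 were higher, 1 was lower and 4 did not pass (median 0.28), against 17.8% higher and 15.5% lower of all tested genes, and without siTREX1 replicate 1 the counts were 10 higher and 1 lower. SFPQ had the largest difference among them, with 389 ± 2.89 CPM in libraries labelled siTREX1 and 150 ± 5.09 CPM in siCtrl libraries (log2 fold change 1.38, edgeR adjusted p = 1.8e-05), and PSPC1 (0.94) and RBM14 (0.73) were also higher. Of 10 partners of the other long noncoding RNAs, 6 were higher and 4 did not pass (median 0.58). With at least 10 counts required in all libraries, 5 were higher, since MYC passed the filter only through the libraries labelled siTREX1. The median of 0.58 includes MYC. The splicing factors SRSF2, SRSF1 and SRSF3 were higher by 1.18, 1.16 and 0.83, and RBMX, an RNA-binding protein that associates with NORAD, by 0.47 (edgeR adjusted p = 3.2e-05, 4.4e-05, 4.9e-05 and 0.000265). MYC, a transcription factor that drives MIR17HG, was near the limit of detection in siCtrl libraries, with 62, 79 and 68 estimated counts in libraries labelled siTREX1, against 3, 0 and 7 in siCtrl libraries.

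**Figure D5:**
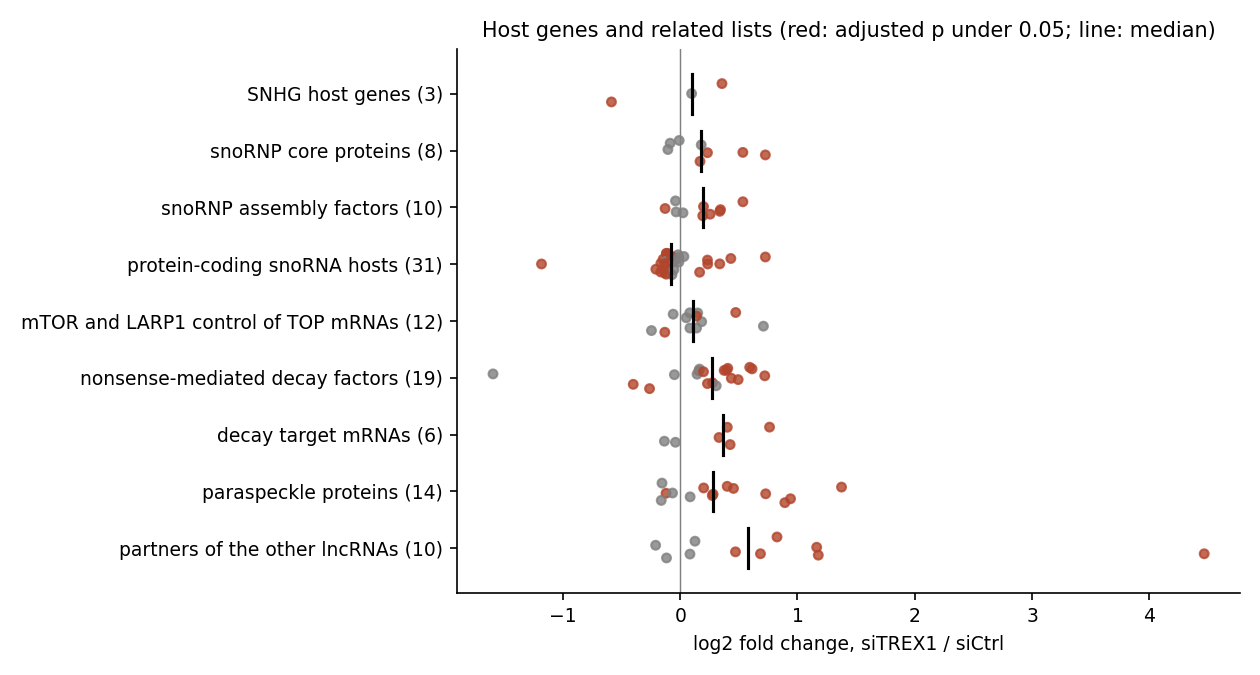
Log2 fold change in libraries labelled siTREX1 over siCtrl (horizontal axis) for the 3 tested SNHG hosts (top row) and the tested genes of 8 related lists, with the number of genes in brackets, red where the adjusted p was under 0.05 and a vertical line at each median. The medians run from -0.08 for protein-coding snoRNA hosts to 0.58 for partners of the other long noncoding RNAs. The median of 0.58 includes MYC, the point at 4.47, which passed the filter only through the libraries labelled siTREX1. SNHG4 at -0.59 is the host farthest below 0 in the top row.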

How the data were processed

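RNA was sequenced from 3 H69AR libraries labelled siTREX1 and 3 labelled siCtrl, with a directional paired-end kit. The authors quantified transcripts with kallisto, and the deposited estimated counts are scaledTPM values from tximport, with 1 transcript per symbol. The submitters' processing notes name the build hg19, and no source used here gives the kallisto version, the transcript annotation or the strand setting. After rounding, the test was that of edgeR 4.0.16 under R 4.3.3 (robust quasi-likelihood, TMM factors, filterByExpr with a minimum count of 10), with Benjamini-Hochberg adjustment over all 13221 genes tested, at an adjusted p of 0.05, and the fit was tested on simulated data. Standard errors were derived from the fold change and its F statistic. CPM used TMM-scaled totals. A line without a symbol (0.0925% to 0.109% of counts) was left out, and no 2 libraries were identical. Transcript models were taken by identifier from GENCODE 29 (GRCh38), start windows from RefSeq (GRCh38.p14), and no coordinates were converted.

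Members and lists were chosen with earlier results of these data known. All members were reported, with values in every library for those called or averaging at least 10 CPM. Of each list, up to 4 tested genes with the lowest p were named, with overlapping coding genes and TREX1, and some items are not reported here. UPF1, FBL, MYC, NBAS, EIF4A3 and the cell type markers shown were named after their values were seen. Alternatives were RLE factors, library sizes alone, other filters, DESeq2 1.42.0, limma-voom (limma 3.58.1), a replicate block, removal of a GC trend and each library left out.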

Additional observations from a re-analysis of the deposited data

How the results depend on the processing

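Under 15 other settings, the lower call of SNHG4 was kept in all and SNHG32 stayed uncalled in all. The higher call of SNHG20 was lost without a filter on low counts (log2 fold change 0.36, edgeR adjusted p = 0.0529), where the number of host genes called higher was 0 in place of 1. In that setting 18491 genes in place of 13221 entered the fit and the adjustment, and which of these changed the call was not tested. With each library left out in turn, that number ran from 0 to 1, the SNHG20 log2 fold change from 0.29 to 0.45, that of SNHG4 from -0.70 to -0.52, and that of TREX1 from -0.62 to -0.16, the last called only without siTREX1 replicate 1 (-0.62). Over the related lists together, 21 genes were called lower with all libraries and 13 to 17 with one left out. Called higher among the assembly factors were 6 genes, and 2 or 3 under 7 settings. Among the mTOR and LARP1 genes, 2 were called higher and 0 or 1 under 11 settings. EIF4EBP1 changed sign to 0.063 once a GC trend was removed, alone and with the replicate block, and the cause was not tested. For 36 other genes followed under these settings, 51 of 538 values lost their call and 5 gained one. Replicate numbers did not pair the libraries: the deviations of same-numbered libraries correlated at 0.018, 0.026 and 0.025. With the number as a block, edgeR called 1901 genes higher and 1518 lower, in place of 2349 and 2049, and gave 0.35 for SNHG20 (adjusted p = 0.0181), -0.59 for SNHG4 (adjusted p = 0.0280) and 0.10 for SNHG32 (adjusted p = 0.108).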
